A study of Arabidopsis thaliana with 4 samples.

Results

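Leaf transcripts of Arabidopsis thaliana, ecotype Col-5, were compared between plants kept without potassium and plants kept on a full nutrient solution, 28 h after the potassium was removed. The comparison uses 2 of the 4 arrays of the series, and covers all 8247 probe sets that are not Affymetrix controls. Members were taken by treatment alone: the array whose treatment text describes removal of potassium, and the array whose text describes the full solution. All plants grew on sucrose-containing agar until day 21 and then in hydroponics under constant light at 24 °C and 80% humidity, after a 16 h day before the transfer. The full solution contained 0.25 mM KH2PO4 and 0.5 mM KOH. Both salts were missing from the potassium-free solution, which received 0.27 mM extra Ca(H2PO4)2. Calcium and both the salt and the amount of phosphate thus differed together with potassium, and their effects cannot be told apart from one another. No nitrate salt appears in the labelled recipe of the full solution, which leaves its nitrate supply unknown. The other 2 arrays, from plants without nitrate and without phosphate, are given beside the main values where they help to read them. The phosphate-free solution also lacked KH2PO4, which is a potassium salt too, and its KOH content was not recorded here.

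Potassium is the most abundant inorganic cation of plant cells. It sets turgor in growing cells and guard cells, balances charge during the transport of nitrate, sugars and organic acids, and activates many enzymes, among them those of protein synthesis and glycolysis. In leaves, potassium supply is tied to phloem loading of sucrose, and plants short of potassium are known for reactive oxygen signals, for jasmonate-related responses and for recovery of potassium from older leaves.

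Each solution was represented by 1 array, so no difference has a replicate check and none could be tested. Signals are linear, in arbitrary units, and their trimmed means were nearly equal, from 100.146 to 100.174 over the 4 arrays. Signals under 25 were set to 25. A probe set above 25 on at least 1 of the 2 arrays is called measured, and a ratio of at least 2-fold is called higher or lower. Where 1 of the arrays lay at the limit of 25, the ratio is a lower bound, marked by the words "at least" or called a bound. A gene's ratio is the mean log2 ratio of its measured probe sets. In whole leaves, fewer cells of a type and less RNA per cell cannot be told apart.

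Higher signals were more frequent and larger than lower signals in potassium-depleted leaves. Of the 8247 probe sets, 301 were at least 2-fold higher (3.65%) and 141 at least 2-fold lower (1.71%). Among the higher ones 92 were bounds, and among the lower ones 9. At least 4-fold differences were found for 90 probe sets on the higher side and for 3 on the lower side, and at least 8-fold differences for 22 and 0. The annotation names a single gene for 3794 probe sets, or 3602 genes, of which 1702 were measured. Of the named genes, 105 were higher (2.92%) and 44 were lower (1.22%), and these shares are the background for the counts of each gene list below. Over the measured genes alone these counts correspond to 6.17% and 2.59%, and the median log2 ratio was 0.03. The median size of the log2 ratio was 1.54 among the higher genes and 1.23 among the lower ones. A total of 26 higher genes and 0 lower genes reached 4-fold.

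The brightest probe sets were lower on the potassium-depleted array as a class. Among 269 probe sets with a geometric mean signal of at least 1000, the median log2 ratio was -0.32, with 9 higher and 18 lower. Among 1008 probe sets between 50 and 100, the median was 0.03, with 100 higher and 36 lower. The 1350 probe sets between 25 and 50 had a median of 0.07, with 71 higher and 15 lower, and ratios in this range are bounded by the floor. Lower ratios among bright genes, below, stand beside this shift.

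**Figure D1:**
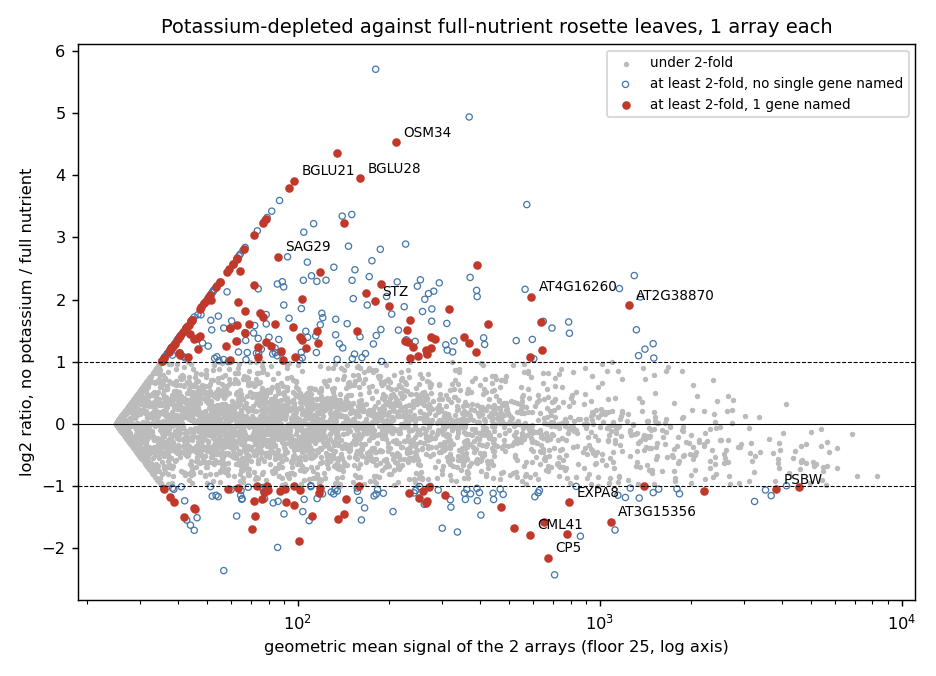
Log2 ratio of the potassium-depleted over the full-nutrient signal for the measured probe sets, against the geometric mean signal of the 2 arrays on a log axis. Dashed lines mark 2-fold, filled points name 1 gene and open points none or several; the 301 higher and 141 lower probe sets lie beyond them, and the cloud bends below 0 at the bright end, where the median is -0.32 from a signal of 1000.

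The arrays also differed in technical readings. Per the labels, 312 cells were masked and 183 were outliers on the full-nutrient array, against 0 and 50 on the potassium-depleted array. The ratio of 3' to 5' signal for the GAPDH control was 2.36 in the full solution and 2.02 without potassium, and 1.46 and 1.26 on the other 2. The ubiquitin control gave 3.16 and 2.67. Signals above 25 were recorded for 47.54% of probe sets on the full-nutrient array and for 49.57% on the potassium-depleted one. Light-harvesting and photosystem genes, transcripts of green tissue, were among the brightest named genes on both arrays. Their signal does not tell whether other tissue was present as well. Of 18 root marker names, 4 genes were on the array, and their summed signal was 62.1 on the full-nutrient, 51.0 on the nitrate-depleted, 68.6 on the phosphate-depleted and 580.0 on the potassium-depleted array. Most of that sum came from BGLU21 (AT1G66270), a beta-glucosidase. Of 10 flower marker names 1 was on the array, AT5G07230, with 17.4 in the full solution and 4.4 without potassium, both under the floor. No phloem, guard cell or seed marker of the lists was named by the annotation. The part of root RNA and of the technical readings in the ratios was not tested.

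The plot of the 40 highest genes shows how far they stood from the other solutions. Of the 113 named probe sets on the higher side, 110 had their brightest signal of the 4 arrays on the potassium-depleted array, and 7 were at or under the floor on all 3 others. The choice of these genes already fixes that the potassium-depleted signal lies above the full-nutrient one.

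**Figure D2:**
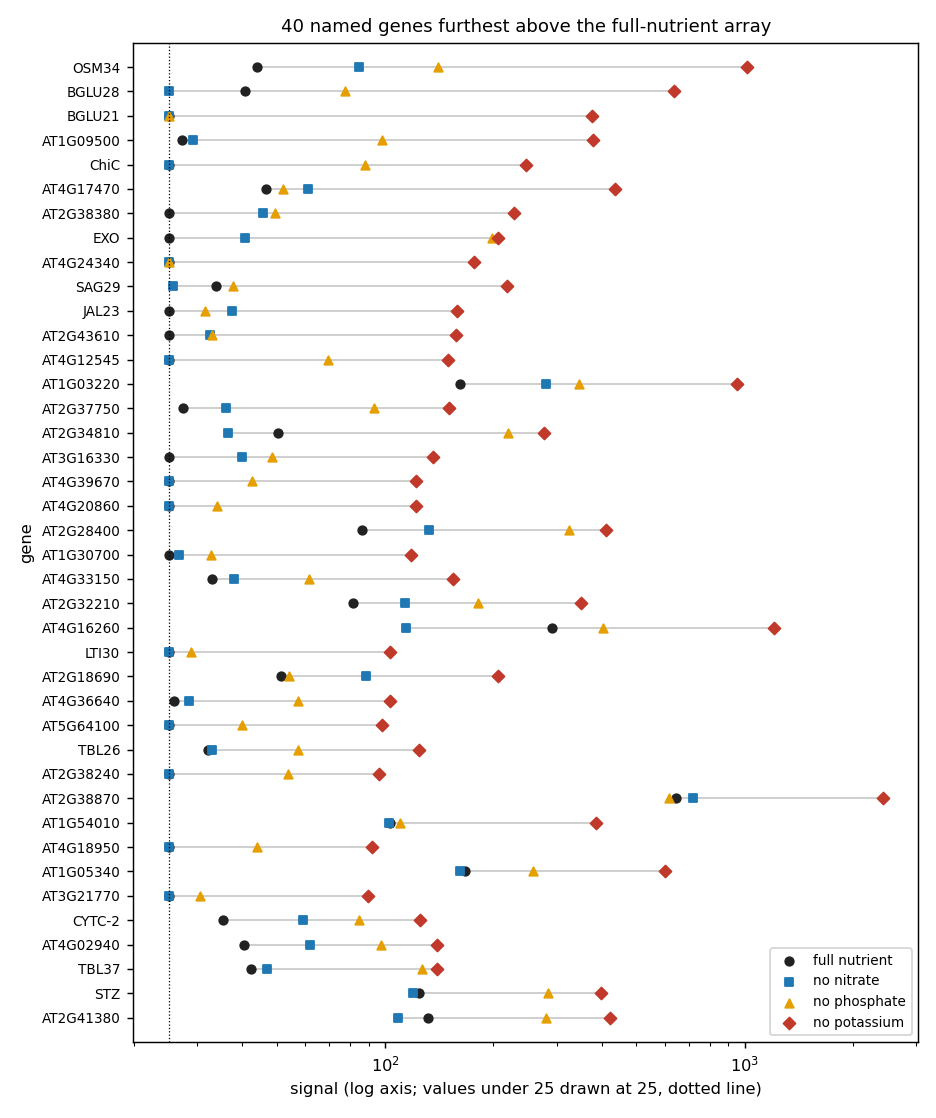
Signals on all 4 arrays, on a log axis in arbitrary units, for the 40 named genes with the highest log2 ratio. Genes with several probe sets are drawn at their geometric mean. The potassium-depleted point is the furthest right in every row, and many full-nutrient points lie at the floor of 25.

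The highest ratio among named genes belonged to a protein of pathogen defence and osmotic stress. OSM34 (AT4G11650), osmotin of the thaumatin-like family, gave 44.0 on the full-nutrient array, 84.4 without nitrate, 139.9 without phosphate and 1018 without potassium, which is 23.1-fold above the full solution. It was low on 1 array, intermediate on 2 and high on the potassium-depleted array. Of 24 thaumatin-like loci, 12 were named on the array, 4 were measured and 3 were higher, beside 2.92% of all named genes. This list of loci and those of chitinases and berberine bridge-like enzymes were written after values had been seen. AT4G36010 went from 40.4 on the full-nutrient to 110.8 on the potassium-depleted array (2.74-fold), and AT2G28790 from 48.2 to 113.4 (2.35-fold). The fourth, AT4G38670, had a log2 ratio of -0.52.

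Chitinases, which cut the chitin of fungal walls, differed in both directions. Of 24 loci 16 were named, 6 were measured, 4 were higher and 1 was lower, and the remaining 10 lay at the floor on both arrays. Over all named genes 2.92% were higher and 1.22% lower. ChiC (AT4G19810), a class V chitinase, had 3.6 on the full-nutrient, 15.0 on the nitrate-depleted, 87.8 on the phosphate-depleted and 245.7 on the potassium-depleted array, at least 9.83-fold higher than the floor. CHI (AT2G43570) was bright on every array, with 361.9, 222.1, 620.8 and 1122.5 in the same order, a 3.10-fold difference between the outer 2. AT2G43610 had 22.1 and 157.6 (at least 6.30-fold). These 3 genes were highest without potassium, whereas AT2G43590 was lower. Its stronger probe set read 926.4 on the full-nutrient, 89.0 on the nitrate-depleted, 485.5 on the phosphate-depleted and 289.7 on the potassium-depleted array, so the potassium-depleted signal lay below the full-nutrient one and above the nitrate-depleted one. The gene's second probe set had a log2 ratio of -0.83, and the gene mean was -1.25. AT4G01700 had 51.0 and 106.8 (2.09-fold), and AT2G43620 had a log2 ratio of 0.20.

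Several of these chitinases stand in 1 run of neighbouring genes. In the order of the gene table, AT2G43550, AT2G43560, CHI, AT2G43590 and AT2G43610 had log2 ratios of 1.40, -1.25, 1.63, -1.25 and 2.66, the last a bound. The called genes of the run thus alternate between higher and lower, with 1 gene that is not called between CHI and AT2G43590 and 1 between AT2G43590 and AT2G43610. AT2G43550 encodes a defensin-like peptide and AT2G43560 a chloroplast FKBP-type isomerase. Chitinases of the run are related in sequence, and a probe set may hybridise to more than 1 of them.

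Other secreted defence proteins were higher as well. AT4G16260, of the beta-1,3-glucanase family, had 291.8 on the full-nutrient, 114.4 on the nitrate-depleted, 402.5 on the phosphate-depleted and 1204.2 on the potassium-depleted array (4.13-fold). AT2G38870, a proteinase inhibitor of the potato inhibitor I family, had 645.1, 719.5, 615.1 and 2420.4 in that order (3.75-fold). Its signals on the 3 other arrays lay close together, and the potassium-depleted array stood apart. LCR69 (AT2G02100) and AT2G43550, both defensin-like, were 2.28-fold and 2.64-fold higher. Their relatives LCR67 and LCR68 had log2 ratios of 0.45 (a bound) and -0.30, and the thionin gene THI2.1 had 0.53 (a bound). AT4G33720, related to the pathogenesis-related protein PR-1, had 28.8 and 74.9 in 1 probe set and 23.0 and 27.4 in the other, a gene mean of 0.76 on the log2 scale, and was not counted as higher.

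Beta-glucosidases release glucose from stored conjugates, among them defence glucosides, and some act on glucosinolates. BGLU28 (AT2G44460) had 40.8 on the full-nutrient, 3.4 on the nitrate-depleted, 77.4 on the phosphate-depleted and 633.8 on the potassium-depleted array, a 15.5-fold difference. BGLU21 had 1.7, 0.8, 5.3 and 377.2 in that order, at least 15.1-fold above the floor. It was detected on the potassium-depleted array and on no other. BGLU21 is also the main member of the root marker list, and the jacalin-related lectins JAL34 and JAL31 of that list had 52.7 and 125.8, and 3.7 and 18.9, on the full-nutrient and potassium-depleted arrays. The last member, the peroxidase AT4G30170, had 4.0 and 58.1. JAL23 (AT2G39330), a further jacalin-related lectin, which is not on the root list, had 24.3 and 158.5 (at least 6.34-fold). BGLU15, BGLU25 and BGLU46 had log2 ratios of 0.70, 0.70 and 0.27, the first and the last of them bounds. The list of glucosidases, lectins and glucosinolate genes had 14 named genes, of which 8 were measured and 5 higher, beside 2.92% of all named genes.

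Genes of glucosinolate metabolism itself, sulphur-rich defence compounds of the cabbage family, were sparsely named by the annotation. Of 39 loci 5 were named and all were measured, with a median log2 ratio of 0.17. Of the 5, 2 were higher, beside 2.92% of all named genes. GTR1 (AT3G47960), a plasma membrane glucosinolate importer, had 143.0 on the full-nutrient, 142.2 on the nitrate-depleted, 197.7 on the phosphate-depleted and 361.0 on the potassium-depleted array (2.52-fold). AT2G25450, which encodes the side-chain hydroxylase GSL-OH, had 404.9, 580.3, 340.9 and 855.2 in that order (2.11-fold). Both were highest without potassium. The transferase UGT74B1 of the core pathway had a log2 ratio of 0.17, AOP3 0.03 and AT2G31790 -0.11.

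Class III peroxidases, secreted enzymes that use or make hydrogen peroxide in the cell wall, were the family with most higher genes among the lists counted. Of 73 loci 46 were named, 20 were measured, 9 were higher and 2 lower, and the other 26 lay at the floor on both arrays. The higher ones were 19.6% of the named members, beside 2.92% of all named genes, in a list of loci written after values had been seen. AT2G38380 had 2 probe sets, with 9.4 and 1.9 in the full solution and 348.8 and 148.5 without potassium, at least 13.95-fold and 5.94-fold apart. AT5G64100 had 10.0 and 98.0 (at least 3.92-fold) and AT3G21770 had 18.2 and 89.8 (at least 3.59-fold). These 3 genes were under the floor in the full solution. A second probe set of AT3G21770 read 5.0 in the full solution and 20.3 without potassium, under the floor on both, and did not enter its ratio. AT5G64120 (PRX71), a peroxidase of the wall, was measured on every array, with 136.1 on the full-nutrient, 81.5 on the nitrate-depleted, 367.9 on the phosphate-depleted and 387.5 on the potassium-depleted array (2.85-fold). AT4G37520 had 178.1, 109.2, 239.1 and 456.1 in that order (2.56-fold). For AT5G64120 the phosphate-depleted and potassium-depleted signals lay close together, and for AT4G37520 they did not. AT3G32980 was 3.03-fold higher, and AT4G36430, AT5G39580 and AT4G30170 were at least 2.94-fold, 2.37-fold and 2.32-fold higher.

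The 2 lower peroxidases were AT4G11290, with 70.6 in the full solution and 21.5 without potassium (at least 2.82-fold lower), and AT1G71695, with 220.9 and 94.8 (2.33-fold lower). AT4G11290 was also low on the nitrate-depleted and phosphate-depleted arrays, at 19.9 and 30.6. AT1G71695 was not, at 226.0 and 251.8, so its potassium-depleted signal was the single low one. AT4G21960 (PRXR1) had a log2 ratio of -0.38. The family thus held genes on both sides of 2-fold.

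Berberine bridge enzyme-like oxidases, flavin enzymes of which some members oxidise oligosaccharides released from the cell wall, included 3 higher genes among 12 named and 6 measured of 27 loci, beside 2.92% of all named genes. AT2G34810 had 50.5 on the full-nutrient, 36.6 on the nitrate-depleted, 219.0 on the phosphate-depleted and 275.8 on the potassium-depleted array (5.46-fold). AT4G20860 had 2 probe sets, with 15.1 and 17.9 in the full solution and 140.7 and 105.4 without potassium, at least 5.63-fold and 4.22-fold apart. AT1G30700 likewise had 5.9 and 18.2 against 121.7 and 115.1, at least 4.87-fold and 4.60-fold. For both genes the 2 probe sets gave the same direction and a similar size. Of the rest, AT4G20840 had -0.75, and AT4G20820 had 0.15 (log2 ratios), and AT5G44380 had signals of 1.4 and 29.3, a bound of 0.23.

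Jasmonate genes were almost absent from the annotation, with 2 of 39 loci named. AT2G38240, a jasmonate oxidase that inactivates the hormone, had 1.5 on the full-nutrient, 8.8 on the nitrate-depleted, 53.8 on the phosphate-depleted and 96.1 on the potassium-depleted array (at least 3.84-fold). The other is THI2.1, given above, a thionin gene known to respond to methyl jasmonate. A general reading of the jasmonate pathway cannot be made from 2 genes.

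Sugar movement and leaf ageing were represented by SAG29 (AT5G13170), also known as SWEET15, a sugar carrier of ageing leaves. Its signals were 33.8 on the full-nutrient, 25.7 on the nitrate-depleted, 37.7 on the phosphate-depleted and 217.7 on the potassium-depleted array, a 6.44-fold difference. The potassium-depleted array stood apart from the 3 others. The vacuolar sugar carriers TMT1 and TMT2 had log2 ratios of 0.75 and 0.33, and SWEET17, a vacuolar fructose carrier, -0.10. All 10 named genes of the senescence and autophagy list were measured. Of these 2 were higher, SAG29 and WRKY6, beside 2.92% of all named genes. A log2 ratio above 0 was found for 9, and the list median was 0.35. Over all 1702 measured named genes, 890 had a log2 ratio above 0 and the median was 0.03. The autophagy genes of the ATG8 family, whose products coat autophagosomes, ranged from -0.44 for ATG8E to 0.73 for APG8A, so none reached 2-fold.

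Amino acid breakdown and nitrogen recycling contributed single genes. AT4G33150 encodes the bifunctional enzyme that starts lysine breakdown (lysine-ketoglutarate reductase and saccharopine dehydrogenase). It had 33.0 on the full-nutrient, 37.9 on the nitrate-depleted, 61.4 on the phosphate-depleted and 154.9 on the potassium-depleted array (4.69-fold). MCCA, a subunit of the carboxylase of leucine breakdown, had 24.7 and 44.3 (at least 1.77-fold), while the other subunit, MCCB, had a log2 ratio of -0.25. For arginine synthesis and the entry enzymes of polyamine synthesis, 7 of 19 loci were named and measured, with a median log2 ratio of 0.05. Of these, 2 were higher, beside 2.92% of all named genes. AT4G17830, annotated as an N-acetylornithine deacetylase, had 58.6 and 29.0 in the full solution and 131.8 and 77.6 without potassium over 2 probe sets (2.25-fold and 2.68-fold), and AT4G24830, argininosuccinate synthase, had 37.4 and 88.8 (2.37-fold). The remaining 5 genes of the list, such as OTC, ornithine carbamoyltransferase, lay between -0.49 and 0.09.

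Transcription factors and hormone genes were few. STZ (AT1G27730), a zinc-finger repressor known from salt, cold and oxidative stress, had 90.5 and 171.1 in the full solution and 355.7 and 448.2 without potassium over its 2 probe sets (3.93-fold and 2.62-fold). WRKY6 (AT1G62300), a factor of ageing leaves and defence, had 35.1, 35.2, 56.0 and 101.6 on the full-nutrient, nitrate-depleted, phosphate-depleted and potassium-depleted arrays. WRKY22, a factor of immune signalling, had 27.8, 35.7, 26.3 and 59.9 in the same order. In all 3 genes the potassium-depleted array was highest. Of 33 named transcription factors 11 were measured, and these 3 were higher and 0 lower, beside 2.92% and 1.22% of all named genes. HAT2, a homeobox gene of auxin responses, had the lowest log2 ratio of those measured, -0.85. GH3.3, which conjugates auxin to amino acids, had 39.7, 36.6, 128.4 and 120.2 (3.03-fold), and IAA18, an auxin response repressor, 36.3, 66.7, 73.3 and 108.8 (3.00-fold). For GH3.3 the phosphate-depleted signal was the higher of the 2. EXO (AT4G08950), a secreted protein that responds to brassinosteroid, likewise had similar signals on the phosphate-depleted and potassium-depleted arrays, 197.8 and 205.6, against 19.3 in the full solution (at least 8.22-fold).

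Genes of dehydration responses pointed both ways. The dehydrin gene LTI30 (AT3G50970) had 17.3 in the full solution and 103.0 without potassium (at least 4.12-fold), and the late embryogenesis abundant gene AT2G46140 had 13.2 and 64.4 (at least 2.58-fold). AT1G54410 (HIRD11), a small dehydrin, was lower, with 3231.6 on the full-nutrient, 2927 on the nitrate-depleted, 2559.4 on the phosphate-depleted and 1519.7 on the potassium-depleted array (2.13-fold). It lies in the bright range in which ratios were shifted below 0. The cold and drought genes KIN2 and COR47 had log2 ratios of 0.07 and -0.04, and COR15B -0.57. Of 14 named genes of this list 9 were measured, with 2 higher and 1 lower, beside 2.92% and 1.22% of all named genes.

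Single enzymes of redox metabolism and respiration differed in both directions. Of 5 named antioxidant genes, all measured, 1 was higher and 2 were lower, beside 2.92% and 1.22% of all named genes. Of 6 named aldehyde and alcohol dehydrogenase genes 5 were measured and 1, ALDH7B4, was higher. That list was found by gene name and lacks AT1G09500. AT1G09500, an NAD(P)-binding alcohol dehydrogenase-like protein, had 29.7 on the full-nutrient, 34.3 on the nitrate-depleted, 121.6 on the phosphate-depleted and 610.9 on the potassium-depleted array (20.6-fold), and its second probe set was at least 9.42-fold higher. GR1 (AT3G24170), cytosolic glutathione reductase, had 260.0, 285.9, 309.4 and 578.5 (2.23-fold), and ALDH7B4, a stress-related aldehyde dehydrogenase, had 243.6, 294.1, 321.9 and 743.3 (3.05-fold). All of these were highest without potassium. CYTC-2 (AT4G10040), a mitochondrial cytochrome c, was 3.53-fold higher, from 35.5 to 125.3, and SDH1-1, the flavoprotein subunit of succinate dehydrogenase, 2.82-fold higher, from 93.1 to 262.7. The ascorbate oxidase gene AT5G21105 had 74.4 and 182.8 (2.46-fold). TAPX (AT1G77490), thylakoid ascorbate peroxidase, was 2.13-fold and 2.09-fold lower in its 2 probe sets and the stromal form SAPX had a log2 ratio of 0.33. The chloroplast glutathione reductase GR had 27.6 and 18.2, a bound too close to the floor to place it.

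Enzymes of conjugation and detoxification gave a mixed picture. UGT73B1 (2.90-fold) and UGT87A2 (2.34-fold), which attach sugars to small molecules, were higher, and UGT72E1, which glucosylates lignin precursors, was 2.03-fold lower, with 386.7 in the full solution and 190.1 without potassium. Of 21 named glycosyltransferases 11 were measured. CYP71B6, a cytochrome P450, had 218.0 and 574.6 (2.64-fold). The glutathione transferase gene GSTU18 lay just inside the limit of 2-fold, with 349.2 and 175.0, and was not counted. 

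Cell wall genes were likewise split. TBL26 and TBL37, of a family that acetylates wall polysaccharides, were 3.87-fold and 3.28-fold higher. EXPA8 (AT2G40610), an expansin that loosens walls during growth, had 1225.2 on the full-nutrient, 2172 on the nitrate-depleted, 1016.7 on the phosphate-depleted and 509.9 on the potassium-depleted array, 2.40-fold lower than the full solution and the lowest of the 4. EXPA4 had a log2 ratio of -0.65 and EXPA15 one of 0.87. Of 34 named genes of the list 14 were measured.

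The remaining genes among the 40 highest, given here with AT4G24350 and CCOAMT, which rank below them, fall into no large group. AT4G17470, a palmitoyl protein thioesterase, had 46.6 on the full-nutrient, 60.9 on the nitrate-depleted, 52.1 on the phosphate-depleted and 436.3 on the potassium-depleted array (9.36-fold). AT4G24340 and its neighbour AT4G24350, of the phosphorylase superfamily, were at least 7.05-fold and 2.34-fold higher, the second with 2 probe sets of 2.83-fold and 1.93-fold, and AT4G24340 was under the floor on the 3 other arrays. A second probe set of AT4G24340 read 5.0 in the full solution and 7.4 without potassium, under the floor on both, and did not enter its ratio. AT1G03220, an aspartyl protease family protein, had 161.3, 280.9, 345.3 and 951.2 (5.90-fold). AT4G12545, of the lipid-transfer and seed storage superfamily, was at least 5.96-fold higher, AT4G39670, a glycolipid transfer family protein, at least 4.88-fold, and AT4G36640, a Sec14-like lipid carrier, 3.99-fold. AT1G54010, a GDSL lipase-like protein, was 3.74-fold higher, and AT4G18950, a protein kinase, at least 3.67-fold. AT4G02940, an RNA demethylase of the ALKBH10 type, was 3.45-fold higher. AT2G41380, a methyltransferase family protein, had 131.7 and 421.3 (3.20-fold), and CCOAMT, an O-methyltransferase of the caffeoyl-CoA type, had 23.1 and 79.6 (at least 3.18-fold). Genes for which no role is given here were AT2G37750 (5.49-fold), AT3G16330 (at least 5.44-fold), AT2G28400 (4.77-fold), AT2G32210 (4.32-fold), AT2G18690 (4.00-fold) and AT1G05340 (3.61-fold).

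The lower genes were less far from the full solution. Of the 46 named probe sets on this side, 33 had their dimmest signal of the 4 arrays on the potassium-depleted array. For the others a further depleted array was lower still.

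**Figure D3:**
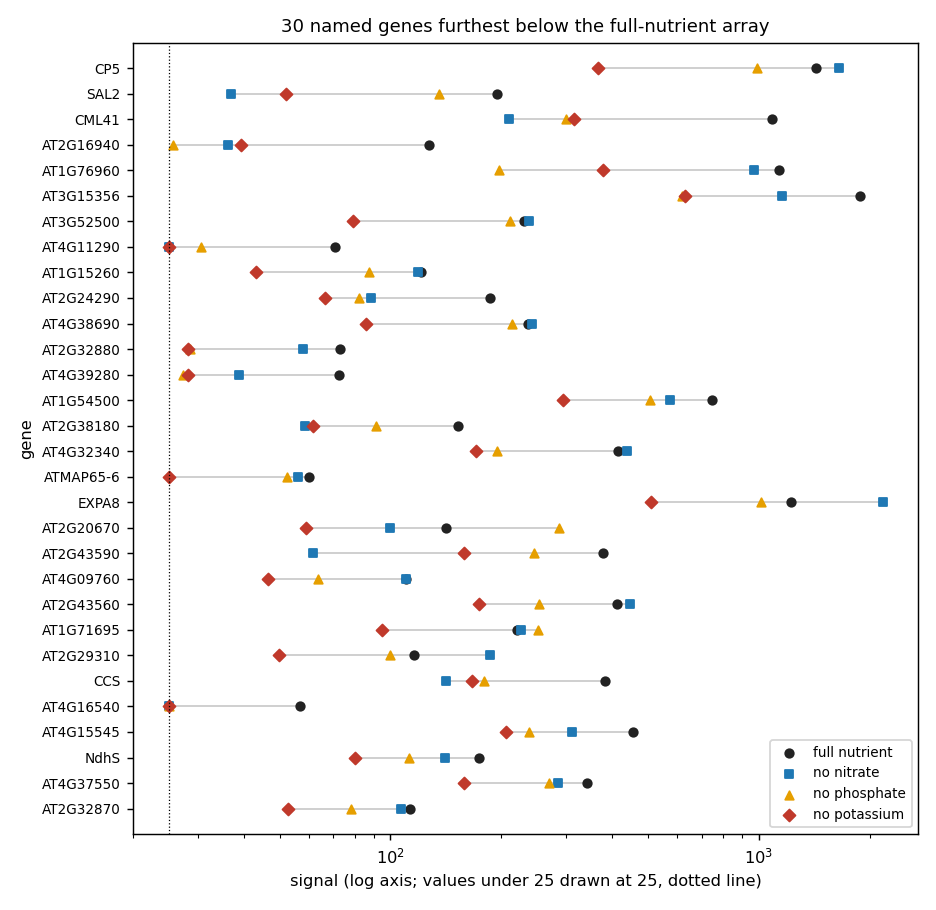
Signals on all 4 arrays, on a log axis in arbitrary units, for the 30 named genes with the lowest log2 ratio. CP5, AT3G52500 and AT4G38690 have their single low point on the potassium-depleted array, whereas for CML41, CCS and AT2G16940 the full-nutrient point stands above the 3 others.

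CP5 (AT1G64720), a START-domain lipid-binding protein, had the lowest ratio among the named genes. Its 2 probe sets read 1421 and 1448.2 in the full solution, 1964.4 and 1385.9 without nitrate, 933.0 and 1049.6 without phosphate, and 318.2 and 421.9 without potassium. The difference was 4.47-fold in one and 3.43-fold in the other, and both put the potassium-depleted array lowest. AT3G52500, an aspartyl protease family protein, had 230.8, 238.1, 211.8 and 79.3 (2.91-fold lower). AT4G38690, a phospholipase C-like phosphodiesterase, had 235.9, 242.1, 213.8 and 86.0 (2.74-fold lower). In these last 2 genes the signals of the 3 other arrays lay close together. AT1G15260 (2.81-fold), AT4G09760, of the choline kinase family, with 110.2 and 46.4, AT2G43560 (2.37-fold) and AT2G29310, a tropinone reductase-like protein (2.32-fold), also had their lowest signal without potassium.

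For a second set of lower genes the result depended on which array served as reference. Over all probe sets, 327 (3.97%) were at least 2-fold higher and 230 (2.79%) at least 2-fold lower without potassium than without nitrate. CML41 (AT3G50770), a calmodulin-like calcium sensor, had 1089.8 on the full-nutrient, 210.3 on the nitrate-depleted, 300.5 on the phosphate-depleted and 315.7 on the potassium-depleted array, 3.45-fold below the full solution. SAL2 (AT5G64000), an inositol polyphosphate phosphatase, had 194.3, 36.8, 135.3 and 52.2 (3.72-fold), so the full-nutrient and phosphate-depleted signals lay above the other 2. AT2G16940, a splicing factor-like protein, had 127.1, 36.2, 25.7 and 39.3 (3.23-fold). Against the nitrate-depleted array in place of the full one, these 3 genes had log2 ratios of 0.59, 0.50 and 0.12, above 0. The same held for CCS (AT1G12520), the copper chaperone of superoxide dismutase, with 381.8, 141.6, 179.8 and 166.1 and a log2 ratio of 0.23 against the nitrate-depleted array. AT2G38180, an SGNH hydrolase-type esterase, had 0.07 on that measure and AT2G43590, the chitinase, 1.36. These 6 genes were thus lower without potassium than in the full solution and not lower than without nitrate. Against the median of the other 3 arrays SAL2 kept a log2 ratio of -1.37, AT2G38180 had -0.57 and CCS -0.11.

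Another set was low on both the phosphate-depleted and the potassium-depleted array. AT1G76960 had 1133.4 on the full-nutrient, 970.0 on the nitrate-depleted, 196.6 on the phosphate-depleted and 377.2 on the potassium-depleted array. AT3G15356, a legume lectin family protein, had 1882.4, 1156.4, 618.5 and 630.7. AT2G32880, a TRAF-like protein, had 73.2, 57.9, 28.5 and 28.3 (2.59-fold lower). In these genes the phosphate-depleted and potassium-depleted arrays gave low signals and the other 2 gave higher ones. AT4G39280, a subunit of phenylalanyl-tRNA synthetase, had 72.6, 38.9, 27.3 and 28.3, AT4G32340 had 416.0, 439.3, 195.2 and 170.9, and AT2G24290 had 186.4, 88.7, 82.0 and 66.6. For AT4G39280 and AT2G24290 the nitrate-depleted signal was also well below the full-nutrient one. AT2G20670 differed from all of these, with its highest signal, 286.3, on the phosphate-depleted array and its lowest, 59.1, on the potassium-depleted one.

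Chloroplast genes appeared among the lower ones in several roles. AT1G54500, a rubredoxin-like protein, had 747.7 on the full-nutrient, 574.7 on the nitrate-depleted, 507.8 on the phosphate-depleted and 294.9 on the potassium-depleted array. NdhS (AT4G23890), a subunit of the chloroplast NAD(P)H dehydrogenase complex, had 173.6, 140.4, 112.6 and 80.0 (2.17-fold lower), and AT4G02530, a thylakoid lumen protein, 115.6, 167.2, 66.5 and 55.0 (2.10-fold lower). All 3 genes had their lowest signal without potassium. Further lower genes were AT4G15545 (2.22-fold), AT4G37550, a formamidase family protein (2.16-fold), AT2G32870, a TRAF-like protein (2.14-fold), PIP, a proline iminopeptidase, with 84.5 and 40.5, and AT4G16540 (at least 2.28-fold).

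Photosynthesis genes stood below the full solution without reaching 2-fold. The annotation named 10 of 78 loci for light harvesting, the photosystems, electron transport and carbon fixation. The loci were listed after values had been seen. All 10 were measured and had a log2 ratio below 0, from -0.93 to -0.36 with a median of -0.80, and 0 were 2-fold lower as a gene mean. The median over all measured named genes was 0.03. Their 14 probe sets summed to a signal of 49232 on the full-nutrient, 54398 on the nitrate-depleted, 42219 on the phosphate-depleted and 28424 on the potassium-depleted array. The potassium-depleted array was thus the lowest. Many of these genes lie in the bright range that was shifted as a whole. SBPASE and LHCB4.3 lie below it, among signals with medians of -0.05 and -0.02, and had log2 ratios of -0.76 and -0.71. After quantile normalization of the 4 arrays or centring on a loess curve over signal the list median was -0.48 and -0.47.

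PSBY, a small subunit of photosystem II, had 5262 on the full-nutrient, 4961.7 on the nitrate-depleted, 4540.1 on the phosphate-depleted and 2768 on the potassium-depleted array. LHCB4.1, a minor antenna protein of photosystem II, had 7161.5, 7096.1, 5936.4 and 4219.6. PSAN, a lumenal subunit of photosystem I, had 3031, 3251.1, 2420.2 and 1635.9. Each of these 3 genes read highest in the full and the nitrate-free solutions, and lowest without potassium. In the carbon fixation cycle, phosphoribulokinase (PRK) had 1558.5, 1286.1, 1550 and 858.4, and SBPASE, sedoheptulose bisphosphatase, 525.1, 449.1, 413.9 and 310.0. RCA, rubisco activase, had 5766 in the full solution and 3740.4 without potassium. Single probe sets of PSBW and PSAE-1, of photosystems II and I, reached 2.08-fold and 2.02-fold lower, while the other probe sets of the same genes did not. Of 5 named genes of chlorophyll synthesis 4 were measured and 0 were 2-fold apart; GSA1, PORB and HEME2, which act at early, late and middle steps, had log2 ratios of -0.60, -0.54 and -0.46, and HEMA2, with 19.9 and 26.9, a bound of 0.11.

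Growth-related structural genes had mostly small ratios. Of 12 named cyclin, histone, tubulin and actin genes 10 were measured, 8 with a log2 ratio below 0, beside 806 of all 1702 measured named genes. TUB5, a beta-tubulin, had 138.4 on the full-nutrient, 159.5 on the nitrate-depleted, 118.0 on the phosphate-depleted and 68.6 on the potassium-depleted array (2.02-fold lower), and was the single member past 2-fold. TUB6 had -0.80 and the histone gene HIS4 -0.28, while ACT11 had 0.73 (a bound). ATMAP65-6 (AT2G01910), which binds microtubules and is not in that list, had 60.1 and 24.9 on the full-nutrient and potassium-depleted arrays (at least 2.40-fold lower).

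Potassium transport itself was barely covered. Of 31 loci for potassium carriers, channels and their regulators, 1 was named, the carrier gene AT1G60160 (KUP12). It had 87.7 in the full solution and 80.2 without potassium, a log2 ratio of -0.13. A further list of potassium and other cation transport genes, found by name, had 8 named genes, of which 7 lay at the floor on both arrays and the glutamate receptor-like channel gene GLR2.7 had 65.9 and 42.1 (-0.65, log2). The high-affinity carriers and inward channels known from potassium-starved roots were not analysed here. Proton pumps were represented by 6 genes, all of the vacuolar ATPase and none of the plasma membrane pumps. All were measured and 0 were called, with log2 ratios from -0.20 for AVA-P1 to 0.11 for VHA-A2 and a median of -0.05. In starch metabolism 3 of 4 named genes were measured. APL3, a subunit of ADP-glucose pyrophosphorylase, was at least 2.90-fold higher, with 22.5 and 72.6, whereas the amylase gene AMY1 and the branching enzyme gene SBE2.2 had log2 ratios of 0.20 (a bound) and -0.21. Proteases and their inhibitors of the list, with 14 of 32 named genes measured, had 0 higher and 1 lower, PIP. Over all named genes 2.92% were higher and 1.22% lower. The protease list was found by gene name and lacks AT1G03220 (5.90-fold higher), AT2G38870 (3.75-fold higher) and AT3G52500 (2.91-fold lower), given above.

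**Figure D4:**
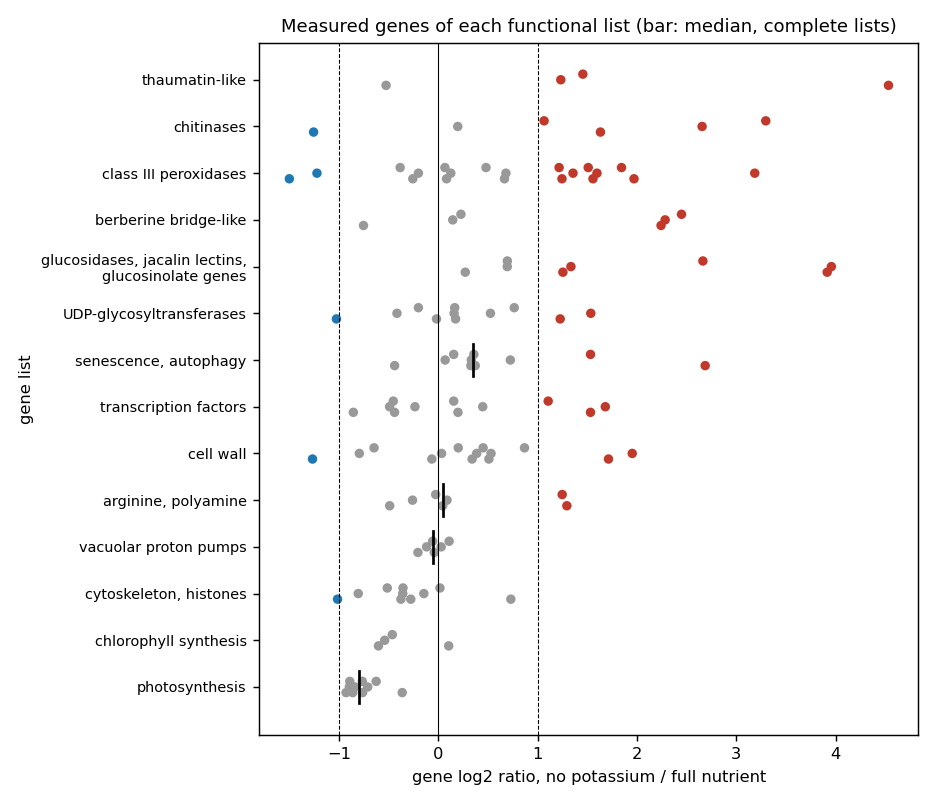
Log2 ratios of the measured genes in the function lists, 1 point per gene, red where higher and blue where lower, with dashed lines at 2-fold; a median is drawn where no member lay at the floor on both arrays. All 10 photosynthesis genes lie below 0 at a median of -0.80, the proton pumps lie near 0, and the peroxidases spread from -1.50 to 3.19, both bounds.

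Measured probe sets of the same gene gave similar ratios in most cases. Probe sets at the floor on both arrays did not enter, among them the second ones of AT4G24340 and AT3G21770, so disagreement of that kind is not covered. For 84 genes with several measured probe sets, the median range of log2 ratios within a gene was 0.32 and the 90th percentile was 0.75. Of 12 such genes called higher or lower, 9 had every measured probe set past 2-fold. This range covers probe differences on the same 2 RNA samples and says nothing of the spread between plants.

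Of the 149 called genes, 10 pairs lay within 2 genes of each other in the order of the gene table, 4 in the same direction and 6 in opposite directions. AT5G64100 and AT5G64120, both peroxidases, were both higher (1.97 and 1.51, log2), and so were AT4G24340 and AT4G24350 (2.82 and 1.23), the first of each pair a bound. AT2G32870 and AT2G32880, both TRAF-like, were both lower. Related neighbours may share hybridisation.

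Probe sets that name no gene or several made up 187 of the 301 higher and 91 of the 141 lower ones. Of all 8247 probe sets analysed, 4383 name no gene and 70 name several. The largest ratios on both sides belonged to such probe sets. The highest had 22.8 on the full-nutrient, 77.9 on the nitrate-depleted, 136.3 on the phosphate-depleted and 1310 on the potassium-depleted array, at least 52.4-fold above the floor. The next had 66.6, 174.0, 738.6 and 2048, a log2 ratio of 4.94. On the lower side 1 probe set had 1649, 2774, 770.2 and 304.5 (5.41-fold lower) and another 129.1, 158.5, 67.6 and 24.2 (at least 5.16-fold lower). All 4 had their extreme signal without potassium, and all exceeded the named genes of their side.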

How the data were processed

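RNA of rosette leaves was hybridised to 4 single-colour arrays, 1 per nutrient solution. The intensity values deposited by the authors are linear, 1 for each probe set on each array; how they were computed and scaled is not given in the sources used here. For the phosphate-depleted sample the letters of title and source name differ, and the treatment text decided. After 50 controls were left out of 8297 probe sets, signals under 25 were set to 25 and log2 ratios of the potassium-depleted to the full-nutrient array were taken (Python 3.11.15, pandas 2.3.3, numpy 2.4.6, statsmodels 0.14.6). For names, 3784 of 3794 probe sets with 1 gene were matched through Entrez identifiers to the TAIR10.1 gene table; 70 probe sets name several genes and 4383 none. Genes named are the 40 highest and 30 lowest past 2-fold, members of described lists, and, chosen after their values were seen, a few further genes past 2-fold and the neighbour pairs. The members and lists were chosen with earlier results of these data known. Of the lists, 39 were patterns of gene names, some of them corrected later where they matched unrelated words. The other 9 were lists of loci written after values had been seen. They cover thaumatin-like proteins, chitinases, peroxidases, berberine bridge-like enzymes, glucosinolates, jasmonate, arginine and polyamines, photosynthesis, and potassium transport. Counting was tested on simulated data. Alternatives were floors of 10 and 50, a pseudocount of 25, quantile normalization, loess centring (span 0.3), plain probe sets alone, the median of the other 3 arrays as reference and, added after the data were seen, the nitrate-depleted array as reference. The number of arrays limits the precision. Probe sequences were not used here.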

Additional observations from a re-analysis of the deposited data

How the results depend on the processing

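With 1 array per solution no left-out replicate and no test exist. No paired analysis was possible because each solution had 1 array. The count of higher probe sets, 301 as reported, stayed between 215 and 446 under the other floors, the pseudocount, both normalizations and both other references, and was 196 among the 6242 probe sets with the plain name ending (3.14%). The count of lower ones, 141 as reported, was 226 with a floor of 10, 73 with a pseudocount of 25, 95 of the plain probe sets (1.52%) and 230 against the nitrate-depleted array, which was chosen as reference after seeing the data. Of the 40 highest genes, 36 stayed at 2-fold with a floor of 50, and 40 with a floor of 10, the pseudocount, either normalization or either other reference. Of the 30 lowest, 21 stayed with the pseudocount, 25 with a floor of 50, 16 against the median of the other 3 arrays and 14 against the nitrate-depleted array. Log2 ratios turned above 0 against the nitrate-depleted array for CCS (0.23), AT2G43590 (1.36), AT2G38180 (0.067), AT2G16940 (0.12), CML41 (0.59) and SAL2 (0.50), and against the median of the other 3 for AT2G16940 (0.12) and CML41 (0.071); in each the full-nutrient array was the brightest of the 4. Signals near 25 give bounds, and 3952 probe sets lay at or under it on both arrays.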
